A study of Mus musculus with 9 samples.

Results

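The immediate early and stress-induced transcription factors described here are 10 mouse genes, Fos, Fosl2, Jun, Junb, Egr1, Atf3, Klf4, Klf6, Myc and Ier3, taken by gene name from the deposited table, which holds 55385 genes. All 10 were found, each as 1 entry, and all 10 were among the 21392 genes with enough reads to be tested. The kidneys of 9 mice were sequenced as poly(A) RNA, with 1 library per mouse. The study asked how pectolinarigenin (PEC), a plant flavonoid, acts on the kidney injury of hyperuricemic nephropathy (HN). The 3 Control mice (replicates 2, 4 and 5) were healthy and untreated, although the titles of their samples carry the name of the disease model. The 3 HN mice (replicates 4, 8 and 12) received adenine at 0.16 g/kg with potassium oxonate at 2.4 g/kg over 4 weeks. The 3 PEC mice (replicates 1, 2 and 3) received the same agents and, over the same 4 weeks, daily oral PEC at 25 mg/kg. This dose comes from the methods of the study, as the sample labels give none. All were male mice of the strain C57BL/6 per the labels (C57BL/6J in the methods of the study), aged 8 to 10 weeks at the start. Adenine also injures the tubules by itself, so that the model does not separate uric acid from other injury.

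Immediate early genes are transcribed within minutes of a growth factor, cytokine or stress signal, because the proteins that switch them on are already present in the resting cell. Fos, Fosl2, Jun and Junb encode subunits of the dimeric factor AP-1, Atf3 encodes a related leucine zipper protein of the stress response, and Egr1, Klf4 and Klf6 encode zinc finger factors. Myc drives growth and the cell cycle, and Ier3 encodes a short-lived protein that modulates survival signals and is not itself a DNA-binding factor. In the kidney, these genes are known to be induced in injured tubule cells and in infiltrating leukocytes.

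The sequences in front of 8 of the 10 genes were read from the RefSeq promoter table (build GRCm38.p6), and are shown for 4 genes in which a letter motif of the AP-1, ATF and CREB class was found in the 250 bases before the start. Egr1 and Myc are missing. Each sequence runs 5′ to 3′ on the strand of its gene and ends at the base before the RefSeq start. This start can differ from the gene span in the deposited table, so that the window of Klf6 reaches a few bases into the span and that of Atf3, which has several starts, lies inside it. The capitals mark TGACNTCA for Jun and Klf6, TGACGT for Fos, its reverse complement ACGTCA for Atf3, the TATA box letters TATAAA for Fos and the E-box letters CACGTG for Klf6. The windows are chr12:85473640-85473889 on the plus strand for Fos, chr4:95052223-95052472 on the minus strand for Jun, chr1:191183334-191183583 on the minus strand for Atf3, and chr13:5861239-5861488 on the plus strand for Klf6.
Fos: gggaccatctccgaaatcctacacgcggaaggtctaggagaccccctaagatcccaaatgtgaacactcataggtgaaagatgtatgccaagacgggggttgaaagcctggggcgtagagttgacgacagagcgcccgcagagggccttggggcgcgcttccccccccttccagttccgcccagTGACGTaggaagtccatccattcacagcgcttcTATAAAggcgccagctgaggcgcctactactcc
Jun: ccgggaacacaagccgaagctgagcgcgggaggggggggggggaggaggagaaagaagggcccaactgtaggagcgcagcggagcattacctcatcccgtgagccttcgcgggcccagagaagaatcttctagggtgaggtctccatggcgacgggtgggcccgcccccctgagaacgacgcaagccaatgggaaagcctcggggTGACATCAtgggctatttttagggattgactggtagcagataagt
Atf3: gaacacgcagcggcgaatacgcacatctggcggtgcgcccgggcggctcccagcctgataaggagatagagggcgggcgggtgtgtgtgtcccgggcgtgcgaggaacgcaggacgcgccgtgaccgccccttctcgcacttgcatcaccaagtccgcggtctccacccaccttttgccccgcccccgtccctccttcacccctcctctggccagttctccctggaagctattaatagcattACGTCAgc
Klf6: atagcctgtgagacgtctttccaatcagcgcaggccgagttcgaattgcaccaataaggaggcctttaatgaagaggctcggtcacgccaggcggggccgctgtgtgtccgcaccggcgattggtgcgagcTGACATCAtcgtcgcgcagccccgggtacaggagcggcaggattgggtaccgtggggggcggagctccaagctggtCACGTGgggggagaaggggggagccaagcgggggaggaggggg

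Jun and Klf6 both hold TGACATCA, a match to TGACNTCA, which begins 45 bases before the start in Jun and 119 bases before it in Klf6. TGACNTCA was found on either strand in 7.49% of the 32851 promoter windows of this length. Fos and Atf3 hold TGACGT, found in 6.47% of windows, which begins 66 bases before the start in Fos and 8 bases before it, on the other strand, in Atf3. Fos was the only one of the 8 genes with TATAAA, 33 bases before its start, a motif found in 12.4% of windows. CACGTG, the core letters of an E-box, was found in Klf4 and Klf6 and in 6.02% of windows. None of the 8 windows held TGACTCA or a CArG box, which were found in 4.46% and 1.47% of all windows. A match is a run of letters, not a measured binding site.

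The libraries held 57714111 to 81069646 counts each, so that even the lowest count of the 10 genes, 30 reads of Fos in Control replicate 4, stood above single reads. Levels are given as deposited FPKM (fragments per kilobase and depth) divided by the TMM factor of the library, a scale that corrects for length, depth and composition. All 12 kidney markers were detected in all 9 libraries. Nphs1 was the lowest, at 4.24 to 6.41, and Kap, a protein of the proximal tubule, the highest. The first principal component (40.5% of the variance) separated Control from the other groups, and the second (27.1%) separated PEC from HN.

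The PEC libraries also stood apart in measures that are not tied to the 10 genes. Annotated ribosomal RNA genes took 0.117%, 0.682% and 0.119% of the counts in PEC replicates 1, 2 and 3, against at most 0.00283% in the other 6 libraries. Gapdh, a reference gene with many near-identical copies in the genome, was at 47.0, 49.8 and 55.1 in PEC, at 3.16, 3.32 and 3.20 in HN, and at 5.24, 4.21 and 7.21 in Control. The deviation of each gene from its mean over the libraries was related in PEC to GC content (Spearman's rho across 21358 genes 0.152 to 0.172) and to gene length (rho -0.260 to -0.227). The values were -0.0606 to -0.0572 for GC content and 0.166 to 0.195 for length in HN, and -0.176 to -0.0705 and 0.0337 to 0.0608 in Control. As the deviations are taken from a mean over all 9 libraries, the values of the groups depend on each other. In the share of counts from mitochondrially encoded genes it was HN that stood apart, with 14.2% ± 1.82 for Control, 6.19% ± 0.164 for HN and 12.3% ± 1.77 for PEC (SD, n = 3). The labels name no batch, so that the treatment and any difference in how the PEC libraries were made cannot be told apart, and the comparisons of PEC with HN and with Control are read with this limit.

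**Figure D1:**
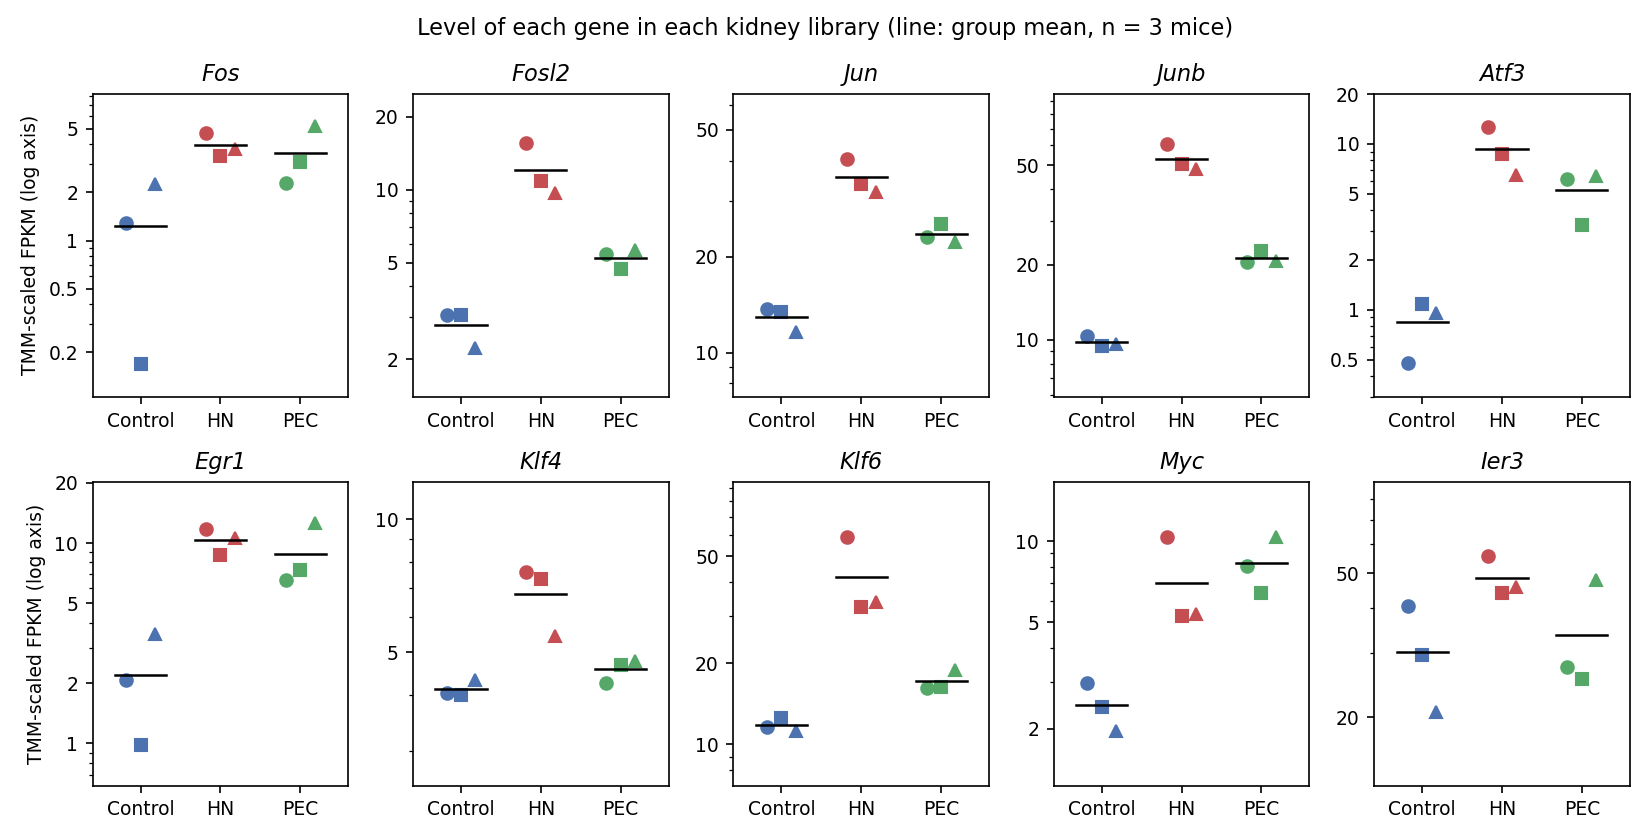
Level of each of the 10 genes in each library, as TMM-scaled FPKM on a log axis, for Control, HN and PEC (circle, square and triangle are the mice with the lowest, middle and highest replicate number, and the line is the mean of 3 mice). In all 10 genes the 3 HN mice lie above the 3 Control mice, while PEC lies between the groups for Fosl2, Jun, Junb, Atf3 and Klf6 and reaches the HN range for Fos, Egr1, Myc and Ier3. Over all genes tested, 27.3% had all HN mice above all Control mice.

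HN kidneys held more mRNA of nearly every gene of the group. Of the 10 genes, 8 were called higher in HN than in Control (edgeR's quasi-likelihood test, a change of 1.5-fold or more and p no higher than 0.05 after Benjamini-Hochberg adjustment over all genes tested), against 17.5% of all 21392 genes tested, and 0 were called lower, against 14.6%. The called genes were Atf3, Junb, Egr1, Fosl2, Klf6, Myc, Jun and Klf4, in order of their fold change. The median log2 fold change of the 10 genes was 1.77, against -0.00081 over all genes. In all 10 genes the levels of the 3 HN mice lay above those of the 3 Control mice without overlap, as they did in 27.3% of all genes tested. An exact permutation test of 3 mice against 3 cannot give a p below 0.10, and none is given for single genes.

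Of the 4 AP-1 genes among the 10, Junb had the largest fold change in HN. The protein JUNB often restrains JUN in the same dimers. Junb was at 10.3, 9.42 and 9.64 in Control replicates 2, 4 and 5, at 60.4, 50.6 and 48.1 in HN replicates 4, 8 and 12, and at 20.5, 22.6 and 20.6 in PEC replicates 1, 2 and 3. The mice within each group lay close together and the 3 groups did not overlap. Junb rose 5.50-fold in HN (log2 fold change 2.46, SE 0.10, adjusted p = 7.36e-07). The gene (chr8:84974484-84978718 on the minus strand) overlaps Prdx2 on the opposite strand by 351 bases at one end, where reads of the genes cannot be told apart without strand information. Prdx2 itself had a log2 fold change of -0.07 (adjusted p = 0.517) in the same comparison.

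Fosl2 encodes FRA2, a FOS-related subunit that lacks the strong activation domain of FOS. Its level was 3.04, 3.05 and 2.24 in the Control mice, 15.6, 10.8 and 9.70 in the HN mice and 5.42, 4.70 and 5.62 in the PEC mice, with HN replicate 4 the highest and no overlap between groups. Fosl2 was 4.40-fold higher in HN than in Control (log2 fold change 2.14, SE 0.20, adjusted p = 2.89e-05). Jun, the main dimer partner of the FOS proteins, was measured at 13.7, 13.4 and 11.6 in Control mice, 40.6, 33.8 and 32.0 in HN mice and 23.1, 25.3 and 22.2 in PEC mice. Again the HN mice were the highest and the PEC mice lay between the others. Jun rose 2.79-fold in HN (log2 fold change 1.48, SE 0.11, adjusted p = 8.46e-06). The antisense gene Junos overlaps Jun and had at most 100 reads in a library, against at least 2456 of Jun.

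Fos, the classic immediate early gene, was the lowest of the 4 AP-1 genes and the most variable among Control mice. Levels were 1.28, 0.168 and 2.25 in Control mice, 4.72, 3.40 and 3.75 in HN mice and 2.29, 3.10 and 5.18 in PEC mice. The Control mice spanned more than a factor of 10, from replicate 4 at the bottom to replicate 5 at the top, and the HN mice lay above them. In HN, Fos had a log2 fold change of 1.70 (95% interval 0.054 to 3.34), with an adjusted p of 0.0929, and was not called. Fos was called without Control replicate 4 (1.19, adjusted p = 0.0415) and without Control replicate 5 (2.45, adjusted p = 0.0440).

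Atf3, which cells induce under many kinds of stress and which is nearly silent in healthy kidney, had the largest fold change of the group. It was at 0.476, 1.08 and 0.964 in Control mice, 12.6, 8.70 and 6.53 in HN mice and 6.12, 3.25 and 6.41 in PEC mice. All HN and PEC mice stood above all Control mice, and PEC replicate 2 was the lowest of the treated animals. Atf3 rose 11.2-fold in HN (log2 fold change 3.48, SE 0.41, adjusted p = 0.000166). Egr1, a zinc finger factor downstream of MAP kinase signals, was at 2.08, 0.986 and 3.51 in Control mice, 11.7, 8.68 and 10.6 in HN mice and 6.57, 7.32 and 12.6 in PEC mice. As with Fos, Control replicate 4 was the lowest and replicate 5 the highest of the Control mice. Egr1 rose 4.81-fold in HN (log2 fold change 2.27, SE 0.45, adjusted p = 0.00429).

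Klf6, a zinc finger factor that is known to be induced early in kidney injury, was at 11.6, 12.5 and 11.2 in Control mice, 59.0, 32.3 and 33.8 in HN mice and 16.1, 16.3 and 18.9 in PEC mice. HN replicate 4 stood well above the other HN mice, and the 3 groups did not overlap. Klf6 rose 3.60-fold in HN (log2 fold change 1.85, SE 0.21, adjusted p = 0.000142). Klf4, a related factor of epithelial differentiation and of endothelial cells, was at 4.06, 4.0 and 4.33 in Control mice, 7.58, 7.34 and 5.45 in HN mice and 4.28, 4.69 and 4.78 in PEC mice. The HN mice lay above the rest, while the PEC and Control mice overlapped. Its rise in HN was the smallest of the genes called, 1.67-fold (log2 fold change 0.74, SE 0.13, adjusted p = 0.00155).

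Myc, a driver of growth and ribosome production, was at 2.96, 2.42 and 1.97 in Control mice, 10.4, 5.28 and 5.35 in HN mice and 8.05, 6.41 and 10.3 in PEC mice. HN replicate 4 and PEC replicate 3 were the highest, the HN and PEC mice overlapped, and both lay above Control. Myc rose 2.89-fold in HN (log2 fold change 1.53, SE 0.30, adjusted p = 0.00324). Ier3 had the highest level of the 10 genes in Control kidney, at 40.5, 29.7 and 20.7, with 55.7, 44.2 and 45.7 in HN mice and 27.6, 25.6 and 47.8 in PEC mice. The HN mice lay above Control, while PEC replicates 1 and 2 lay within the Control range and replicate 3 within the HN range. Ier3 had a log2 fold change of 0.70 in HN (95% interval 0.020 to 1.38, adjusted p = 0.0937) and was not called. Ier3 was called without Control replicate 2 (0.97, adjusted p = 0.0408) and without PEC replicate 3 (0.69, adjusted p = 0.0356).

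Both genes that missed the call in HN passed it with library totals and with limma, which also raised the median of all genes, to between 0.35 and 0.56, and with DESeq2, where that median was 0.019, the last at a log2 fold change of 1.72 (adjusted p = 0.0138) for Fos and 0.72 (adjusted p = 0.0334) for Ier3. Ier3 was also called with only the groups compared (0.73, adjusted p = 0.0384). With library totals only, the median log2 fold change of all genes moved from -0.00081 to 0.56 and the share of higher among all calls from 54.5% to 85.7% (the cause was not tested).

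**Figure D2:**
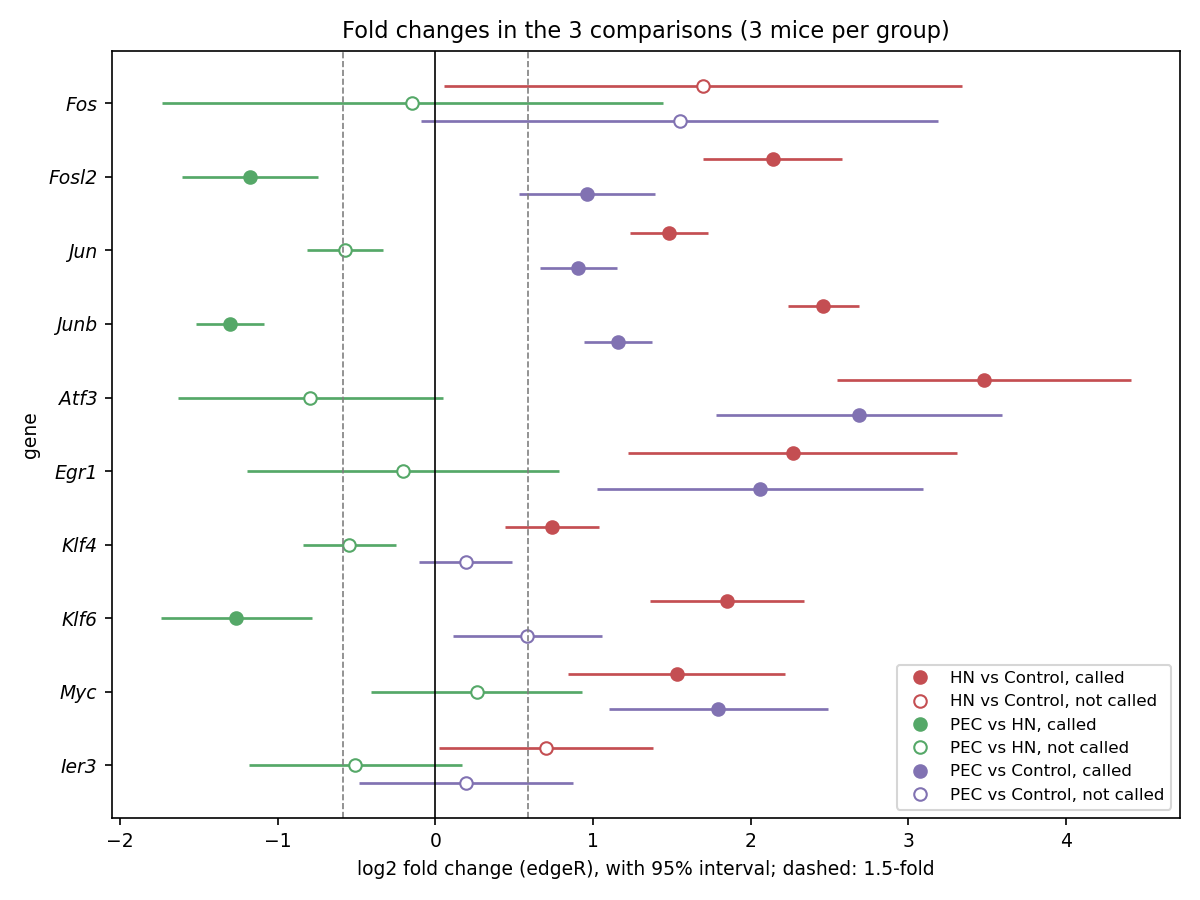
Log2 fold change of each of the 10 genes (edgeR, dot) with its 95% interval (line) for HN vs Control, PEC vs HN and PEC vs Control, 3 mice per group. Filled dots passed the call and dashed lines mark 1.5-fold. The HN vs Control values run from 0.70 for Ier3 to 3.48 for Atf3, and the 3 filled PEC vs HN values, of Junb, Klf6 and Fosl2, lie between -1.30 and -1.18.

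Junb, Klf6 and Fosl2 were lower in PEC than in HN by more than 2-fold, Jun and Klf4 were lower by less than 1.5-fold, and Fos, Egr1, Myc, Atf3 and Ier3 did not pass the test. Of the 10 genes, 3 were called lower in PEC than in HN, against 15.1% of all genes tested, and 0 were called higher, against 13.2%. The median log2 fold change of the 10 genes was -0.56, against -0.015 over all genes. In 6 of the 10 genes the PEC mice all lay below the HN mice, as they did in 29.7% of all genes tested.

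Junb fell 2.47-fold in PEC (log2 fold change -1.30, SE 0.10, adjusted p = 2.7e-05), Klf6 fell by a similar factor (log2 fold change -1.26, SE 0.21, adjusted p = 0.00168) and Fosl2 fell 2.26-fold (log2 fold change -1.18, SE 0.19, adjusted p = 0.00129). These 3 calls held in all 20 alternatives tried, although the alternative with unadjusted p could not lose a call. The fits without a Control mouse kept all HN and PEC mice. With the GC content and length trends removed, the log2 fold changes were -1.09 for Junb, -1.17 for Klf6 and -0.97 for Fosl2. Prdx2, which shares 351 bases with Junb, had a log2 fold change of 0.21 (adjusted p = 0.0587) between PEC and HN.

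Jun and Klf4 passed the adjusted p but not the fold change, and stood at the edge of the call. Jun had a log2 fold change of -0.57 (SE 0.11, adjusted p = 0.00280) and was called without HN replicate 8 (-0.61, adjusted p = 0.00772), without HN replicate 12 (-0.65, adjusted p = 0.00420) and without PEC replicate 2 (-0.62, adjusted p = 0.00592). The value for Klf4 was -0.55 (SE 0.13, adjusted p = 0.00937), and it was called without HN replicate 12 (-0.69, adjusted p = 0.00228). Both were also called with library totals and with limma, which also lowered the median of all genes, to between -0.25 and -0.19, and Jun without a filter on low counts (-0.60, adjusted p = 0.00123). With the GC content and length trends removed, Jun was called (-0.76, adjusted p = 0.000915), and Klf4 no longer passed the adjusted p (-0.37, adjusted p = 0.0750).

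The other 5 genes had wider intervals. Atf3 had a log2 fold change of -0.79 in PEC against HN (95% interval -1.63 to 0.047, adjusted p = 0.123), although the PEC mice all lay below the HN mice. It was called with limma on log2(FPKM + 1) (-0.90, adjusted p = 0.0191) and on log2(FPKM + 0.1) (-1.01, adjusted p = 0.0408), where the median of all genes was lower as well (-0.19 and -0.25). Egr1 was at -0.21 (95% interval -1.20 to 0.78, adjusted p = 0.738) and Fos at -0.15 (95% interval -1.74 to 1.44, adjusted p = 0.890). Myc was the only gene with a positive value, 0.26 (95% interval -0.41 to 0.93, adjusted p = 0.522). Ier3 was at -0.51 (95% interval -1.18 to 0.17, adjusted p = 0.214) and was called lower without PEC replicate 3 (-0.83, adjusted p = 0.0354) and with the GC content and length trends removed (-1.01, adjusted p = 0.0252). Whether the response to PEC differed between genes was not tested.

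**Figure D3:**
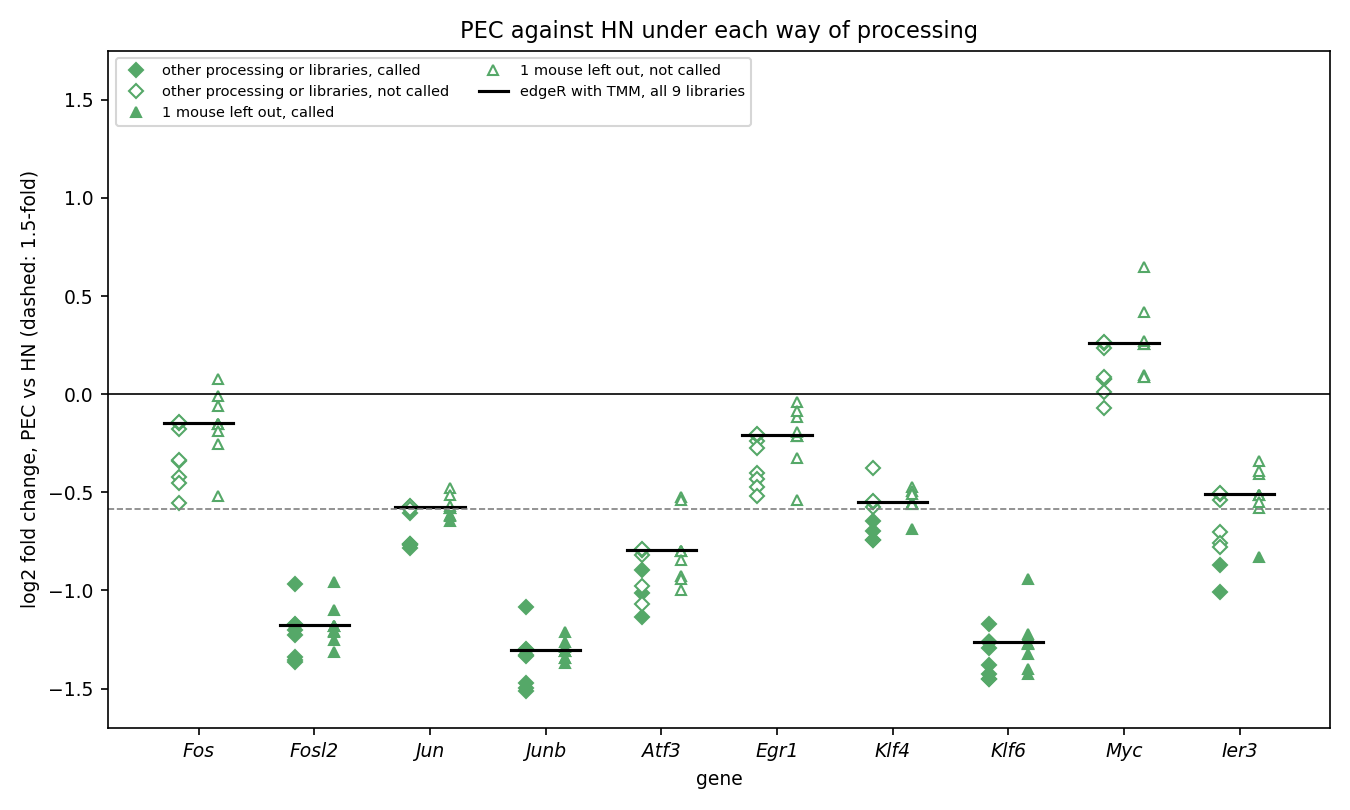
Log2 fold change between PEC and HN for each of the 10 genes with edgeR, TMM and all 9 libraries (black line), under 11 other ways of processing or choosing libraries (diamonds) and with each of the 9 mice left out (triangles). Filled symbols were called and the dashed line marks 1.5-fold. Fosl2, Junb and Klf6 were called under each of these, and Fos, Egr1 and Myc under none.

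Compared with Control, most of the genes were still higher in PEC kidneys. Of the 10 genes, 6 were called higher in PEC than in Control, against 18.7% of all genes tested, and 0 were called lower, against 17.3%. The comparison shares its Control mice with the comparison of HN with Control and its PEC mice with that of PEC with HN, so that the values are set side by side. Atf3 rose 6.44-fold (log2 fold change 2.69, SE 0.40, adjusted p = 0.000624), Egr1 rose 4.16-fold (log2 fold change 2.06, SE 0.45, adjusted p = 0.00619) and Myc rose 3.47-fold (log2 fold change 1.79, SE 0.31, adjusted p = 0.00133). Junb was 2.23-fold higher (log2 fold change 1.16, SE 0.10, adjusted p = 2.06e-05), Fosl2 1.95-fold higher (log2 fold change 0.96, SE 0.19, adjusted p = 0.00275) and Jun 1.88-fold higher (log2 fold change 0.91, SE 0.11, adjusted p = 0.000143).

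Klf6 passed the adjusted p in PEC against Control just under the fold change asked for (log2 fold change 0.58, SE 0.21, adjusted p = 0.0468). It was called in 7 of the 11 processing alternatives, with log2 fold changes from 0.60 (median of ratios) to 0.94 (library totals, where the median of all genes was 0.40), but in 0 of the 9 fits with a library left out (0.52 to 0.63) and not without the 3 libraries with adipocyte RNA (0.51, adjusted p = 0.192). The adjusted p was also lost without Control replicate 2, 4 or 5 or PEC replicate 1, 2 or 3 (0.0736 to 0.129). Klf4 and Ier3 had log2 fold changes of 0.19 (adjusted p = 0.264) and 0.19 (adjusted p = 0.631), and Fos one of 1.55 (adjusted p = 0.110). Fos was called without Control replicate 5 (2.29, adjusted p = 0.0499), with DESeq2 (1.57, adjusted p = 0.0239), with library totals (1.93, adjusted p = 0.0499) and with limma (1.27, adjusted p = 0.0102 on log2(FPKM + 1), and 2.15, adjusted p = 0.0219 on log2(FPKM + 0.1)). Library totals and limma also raised the median of all genes, to between 0.19 and 0.40. The call of Egr1 was lost when the 3 libraries with the most adipocyte RNA were left out together (1.69, adjusted p = 0.0896), an alternative chosen after seeing the data.

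The relatives of these genes were described with the same fit. Of all genes tested, 17.5% were called higher and 14.6% lower in HN against Control. In PEC against HN, 13.2% were called higher and 15.1% lower. Of 10 other AP-1 and small MAF genes, 5 were called higher in HN (8 with library totals) and 0 lower (median log2 fold change 1.19). In PEC against HN, 1 was called lower (1 to 5 over the alternatives, median -0.45). Fosl1 (4.20, adjusted p = 0.00259), Batf, a leukocyte AP-1 factor (2.96, adjusted p = 0.000112), and Fosb (2.45, adjusted p = 0.0102) had the largest rises, from mean levels of at most 0.218 in Control. Jund, the most abundant JUN gene, averaged 99.4 for Control, 134 for HN and 53.9 for PEC, and was the gene called lower in PEC (-1.29, adjusted p = 8.03e-05). That call was lost with the GC content and length trends removed (-0.49, adjusted p = 0.00698).

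Of 12 ATF, CREB and C/EBP genes, 2 were called higher in HN (median 0.081), near the share of all genes, 17.5%. Over the alternatives this count was 1 to 6, with 5 for library totals and 6 for limma on log2(FPKM + 1). In PEC against HN, 5 were called lower (median -0.63), against 15.1% of all genes. Cebpd, an acute phase factor, averaged 2.89 for Control, 19.0 for HN and 3.59 for PEC, and both rose in HN (2.74, adjusted p = 0.00253) and fell in PEC (-2.38, adjusted p = 0.00584). The other call in HN, of Atf5 (0.74, adjusted p = 0.04999), was at the edge. It was lost without Control replicate 2, 4 or 5, HN replicate 4, 8 or 12, or PEC replicate 1 (adjusted p = 0.0571 to 0.139), without a filter (adjusted p = 0.0679) and with the GC content and length trends removed (adjusted p = 0.106). Cebpb, a relative of Cebpd, fell in PEC (-2.50, adjusted p = 0.00527), as did Atf1 (-0.88, adjusted p = 0.000412). Atf4, the central factor of the integrated stress response, was not called in either comparison (HN vs Control 0.11, adjusted p = 0.712; PEC vs HN 0.29, adjusted p = 0.281), nor was its target Ddit3 (HN vs Control 0.055, adjusted p = 0.931; PEC vs HN 0.97, adjusted p = 0.0844), both named here after their values were seen.

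Of 11 other EGR, NR4A and SRF genes tested, 5 were called higher in HN and 0 lower (median 1.05), against 17.5% and 14.6% of all genes. In PEC against HN, 1 was called higher and 2 lower, near the shares of all genes, 13.2% and 15.1%. Egr2 (3.38, adjusted p = 2.16e-05) and Egr3 (3.38, adjusted p = 0.00127) rose in HN with Egr1, from low levels. Egr2 averaged 0.252 in Control and 2.62 in HN, and Egr3 averaged 0.061 and 0.654. Nr4a1, an orphan nuclear receptor, was also called (2.18, adjusted p = 0.0194), but not without Control replicate 2, Control replicate 4 or HN replicate 4 (adjusted p = 0.0572 to 0.0694). In PEC against HN, Nab1, a corepressor of EGR proteins (-0.99, adjusted p = 5.57e-05), and Srf, the factor that binds CArG boxes (-0.88, adjusted p = 0.000426), were lower, and Elk4, a partner of SRF, was higher (0.83, adjusted p = 0.000693), though by less than 1.5-fold with limma on log2(FPKM + 1) (0.52).

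The other KLF genes moved in both directions. Of 13 tested, 4 were called higher and 3 lower in HN (median 0.31), against 17.5% and 14.6% of all genes. In PEC against HN, 5 were called lower and 0 higher (median -0.50), against 15.1% and 13.2%. Over the alternatives, 1 to 9 were called higher and 1 to 4 lower in HN. Klf15, a factor of podocytes and of metabolism, fell in HN from a mean of 41.3 to 11.7 (-1.80, adjusted p = 0.000285). Klf1 was also lower (-1.56, adjusted p = 0.0114), though not with library totals only (adjusted p = 0.0639) or with limma (log2 fold change -0.42 on log2(FPKM + 1), and adjusted p = 0.0525 on log2(FPKM + 0.1)). Klf5 was higher (1.43, adjusted p = 0.0154), but not without Control replicate 5 or HN replicate 4 (adjusted p = 0.0544 and 0.0549). In PEC against HN, Klf12 (-1.36, adjusted p = 0.00719), Klf8 (-1.27, adjusted p = 0.00741) and the glucocorticoid-induced Klf9 (-1.05, adjusted p = 0.0109) were lower. Klf8 was at low levels, with means of 0.260 in HN and 0.106 in PEC.

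In the MYC and MAX network, 4 of 11 were higher by the call and 2 lower in HN (median 0.20), against 17.5% and 14.6% of all genes. In PEC against HN, 1 was called higher and 3 lower, against 13.2% and 15.1%. Over the alternatives, 2 to 8 were called higher and 0 to 3 lower in HN. Mxd3 (2.46, adjusted p = 0.00126), from a low mean of 0.102 in Control to 0.570, and Mycl (1.09, adjusted p = 0.00181) rose in HN. Mxi1, which competes with MYC for MAX, fell (-1.12, adjusted p = 0.00765), although not with library totals only (adjusted p = 0.122), with limma (adjusted p = 0.0636 and 0.0709) or without the 3 libraries with adipocyte RNA (adjusted p = 0.0525). Mycn rose in HN (0.97, adjusted p = 0.00156) and fell in PEC (-1.07, adjusted p = 0.00127), unlike Myc, which had no call between PEC and HN. Mxd4 (-1.44, adjusted p = 0.000430) and Mga (-0.99, adjusted p = 0.000243) were also lower in PEC. The call of Mga was lost with the GC content and length trends removed (-0.33, adjusted p = 0.0315).

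**Figure D4:**
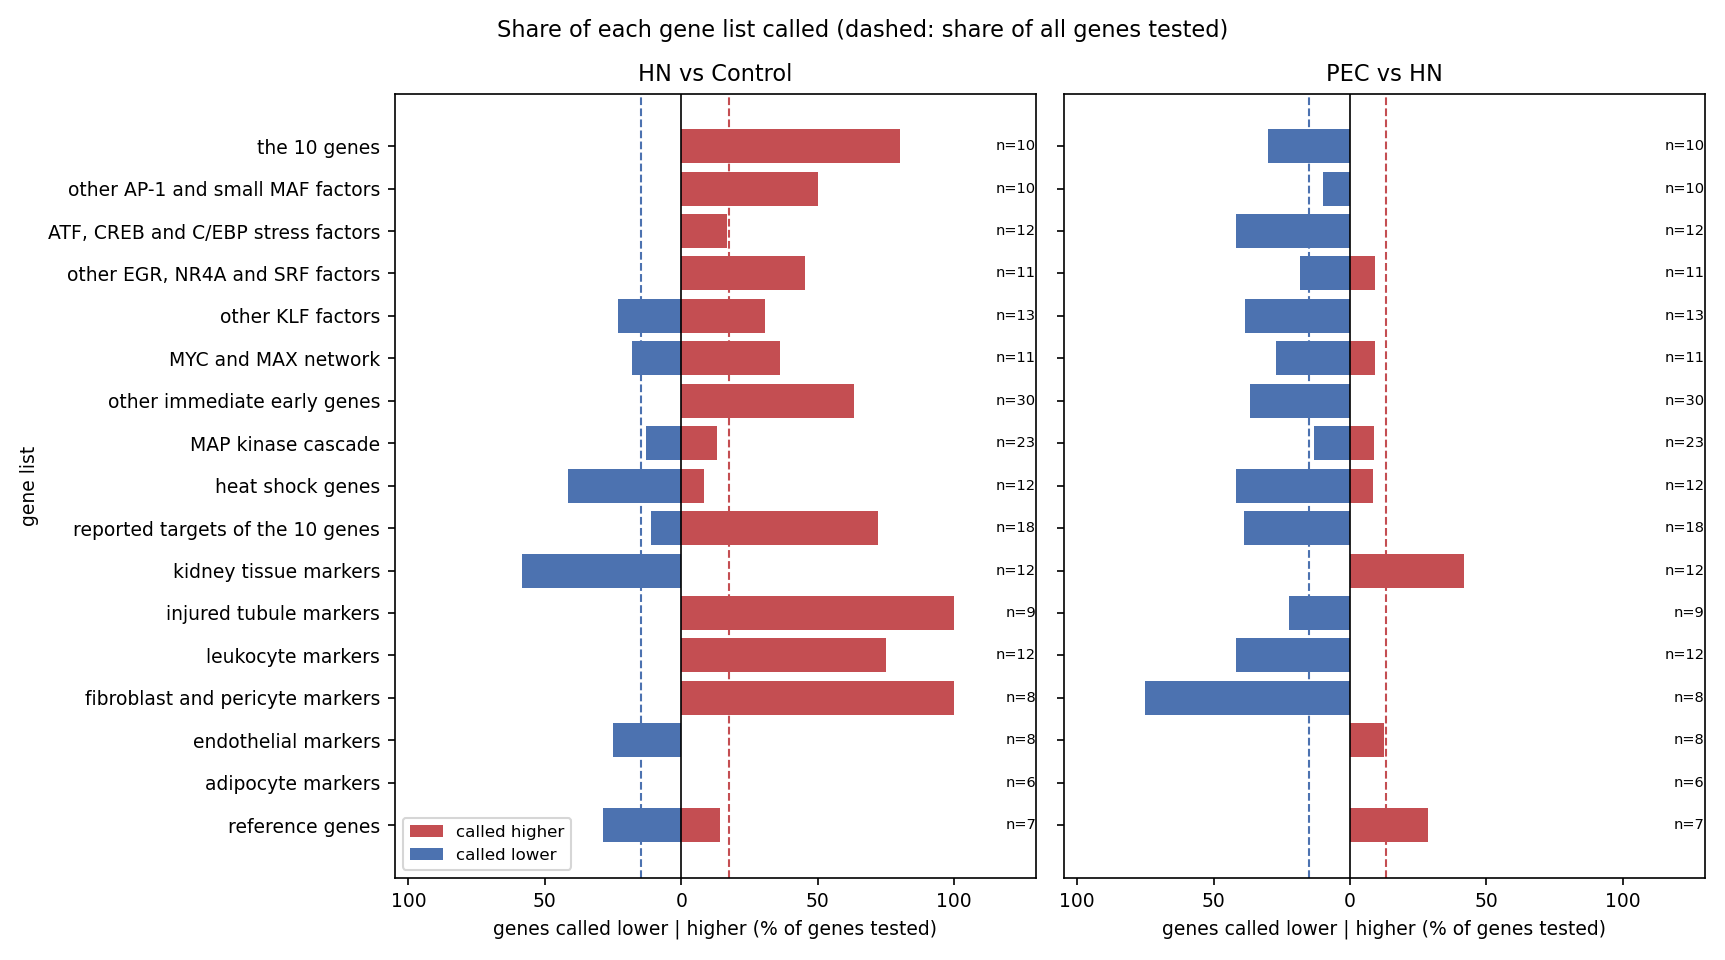
Share of each gene list called higher (red, to the right) or lower (blue, to the left) in HN vs Control and in PEC vs HN, in percent of the genes tested (n at the right). Dashed lines mark the share over all 21392 genes, 17.5% higher and 14.6% lower in HN vs Control, and 13.2% higher and 15.1% lower in PEC vs HN.

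Of 30 other immediate early genes, 19 were called higher in HN and 0 lower (median 0.90), against 17.5% and 14.6% of all genes. In PEC against HN, 11 were called lower and 0 higher (median -0.49), against 15.1% and 13.2%. Socs3, a feedback inhibitor of cytokine receptors, averaged 1.90 for Control, 30.2 for HN and 16.0 for PEC (adjusted p = 7.63e-05 in HN against Control). Nfkbiz, an NF-kB cofactor, rose in HN as well (2.45, adjusted p = 1.39e-05). Among phosphatases that switch off MAP kinases, Dusp2 rose in HN (2.49, adjusted p = 0.00194) and Dusp4 fell in PEC (-2.06, adjusted p = 7.1e-06) to a mean of 1.84, under the Control mean of 6.35. Ier5l was lower in PEC than in HN (-1.19, adjusted p = 0.00144), as was Dusp2 (-1.46, adjusted p = 0.0267), whose call was lost without any 1 of HN replicates 4 and 8 and PEC replicates 1 and 2 (adjusted p = 0.0716 to 0.0890).

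The kinases that feed these genes were called in both directions with edgeR and TMM. Of 23 genes of the MAP kinase cascade, 3 were called higher and 3 lower in HN (median -0.017), against 17.5% and 14.6% of all genes. In PEC against HN, 2 were called higher and 3 lower (median -0.18), against 13.2% and 15.1%. Over the alternatives, 2 to 11 were called higher and 0 to 4 lower in HN, so that this balance depends on the processing. Map3k1 (1.44, adjusted p = 5.82e-06) and Rps6ka1, a kinase downstream of ERK (1.37, adjusted p = 2.66e-05), rose in HN, and Map2k6, a p38 kinase kinase, fell (-1.21, adjusted p = 0.00356), though not with limma on log2(FPKM + 1) or log2(FPKM + 0.1) (adjusted p = 0.0583 and 0.0590). Rps6ka3 had the largest difference between PEC and HN (-2.85, adjusted p = 4.98e-05), with mean levels of 10.7 for Control, 12.2 for HN and 1.68 for PEC. Rps6ka5 was lower in PEC (-0.88, adjusted p = 0.0140), but not without PEC replicate 1 (adjusted p = 0.0515) or with the GC content and length trends removed (adjusted p = 0.566). Mapk12 was higher (0.72, adjusted p = 0.00296), but under 1.5-fold with library totals (0.52) and limma (0.38 and 0.49). Transcript levels say nothing of kinase activity, which these data do not measure.

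Heat shock genes, another stress programme, were more often lower than higher in HN. Of 12, 1 was called higher and 5 lower in HN (median -0.41), against 17.5% and 14.6% of all genes. In PEC against HN, 1 was called higher and 5 lower (median -0.40), against 13.2% and 15.1%. Hspd1, a mitochondrial chaperonin (-1.57, adjusted p = 2.51e-05), and Dnaja1, a cochaperone (-1.44, adjusted p = 0.000641), fell in HN, and Hspb1, a small heat shock protein, rose (1.45, adjusted p = 0.000397). Hsp90aa1 was lower in PEC than in HN (-1.27, adjusted p = 0.00772). So were the near-identical genes Hspa1a (-2.14, adjusted p = 0.0243) and Hspa1b (-1.69, adjusted p = 0.0468), whose counts may be split between the copies and whose calls were lost without PEC replicate 1, 2 or 3 (adjusted p = 0.0538 to 0.0796 for Hspa1a and 0.0866 to 0.130 for Hspa1b). Hspa1b also lost its call without Control replicate 2, 4 or 5 (adjusted p = 0.0703 to 0.0744), and both lost theirs without a filter, with only the groups compared and without the 3 libraries with adipocyte RNA.

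Of 18 genes reported elsewhere as targets of these factors, 13 were called higher in HN and 2 lower (median 1.86). The shares of all genes were 17.5% and 14.6%. In PEC against HN, 7 were called lower and 0 higher (median -0.51), against 15.1% and 13.2%. Timp1, an inhibitor of matrix proteases, averaged 1.34 for Control, 69.2 for HN and 49.2 for PEC (5.69, adjusted p = 3.13e-06 in HN against Control). Cd44, a hyaluronan receptor (4.96, adjusted p = 6.53e-07), and Mmp12, a macrophage elastase (4.51, adjusted p = 4.03e-05), also rose in HN. In PEC against HN, Ccn2, a matricellular protein (-2.09, adjusted p = 0.00339), and Mmp3, a matrix protease (adjusted p = 0.00125), fell. Odc1 (-1.92, adjusted p = 0.00611) and Hmox1 (-2.11, adjusted p = 0.0260), the 2 targets called lower in HN, are named after their values were seen. Only 1 target was called lower in HN in 9 of the 20 alternatives. Hmox1 varied widely among the Control mice (mean 113, SD 97.2).

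The summed leukocyte markers, and the summed fibroblast and pericyte markers, were higher in HN than in Control and lower in PEC than in HN. Kidney tissue markers went the other way, injured tubule markers stayed high in PEC, and endothelial markers differed less. The part of cell types in the result was not tested. In whole kidney, more cells of a type and more RNA per cell cannot be told apart. Leukocyte markers summed to 37.0, 44.1 and 37.5 in Control mice, 624, 556 and 517 in HN mice and 250.3, 262 and 309 in PEC mice. Lyz2 was the most abundant of the 13 and made up most of the sum in HN and PEC (means 17.9 for Control, 469 for HN and 218 for PEC). Ms4a1 was under 0.1 in every library. Of the 12 leukocyte markers tested, 9 were called higher in HN, among them Itgam (5.45, adjusted p = 5.73e-05), Lyz2 (4.73, adjusted p = 1.15e-07) and Adgre1 (3.74, adjusted p = 5.46e-06), and 5 were called lower in PEC than in HN, led by Adgre1 (-2.07, adjusted p = 0.000180), Ptprc (-1.79, adjusted p = 0.00682) and Itgam (-1.55, adjusted p = 0.0191). Ptprc lost this call with the GC content and length trends removed (adjusted p = 0.0734) and without the 3 libraries with adipocyte RNA (adjusted p = 0.0551). Itgam lost it without HN replicate 4, PEC replicate 1 or PEC replicate 3 (adjusted p = 0.0593 to 0.0645) and without those 3 libraries (adjusted p = 0.129). Fibroblast and pericyte markers summed to 54.5, 51.9 and 49.4 in Control mice, 269, 265 and 244 in HN mice and 152, 170.4 and 142 in PEC mice. Acta2 had the highest mean in Control (19.9) and PEC (49.9), and Col3a1 in HN (83.5). All 8 fibroblast and pericyte markers were called higher in HN and 6 lower in PEC, with Col1a1 (4.26, adjusted p = 2.56e-07), Col3a1 (4.20, adjusted p = 2.56e-07) and Postn (2.42, adjusted p = 0.00900) the largest rises. Not called in PEC against HN were Acta2, with a mean of 48.5 in HN (0.056, adjusted p = 0.705), and Pdgfrb (-0.22, adjusted p = 0.441). Lower in PEC were Lum (-1.71, adjusted p = 0.000892), Pdgfra (-1.47, adjusted p = 6.14e-05) and Postn (-1.79, adjusted p = 0.0330). Postn lost its call in PEC without Control replicate 2, HN replicate 4, 8 or 12, or PEC replicate 1 or 2 (adjusted p = 0.0526 to 0.0884), without a filter, with only the groups compared and with the GC content and length trends removed (adjusted p = 0.0617, 0.0604 and 0.154).

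Injured tubule markers summed to 248, 234 and 137 in Control mice, 1389, 1299 and 1221 in HN mice and 1349, 1375 and 1252 in PEC mice. Clu had the highest mean in HN (554) and PEC (681), and Krt8 in Control (83.7). All 9 were called higher in HN, with Havcr1 (7.58, adjusted p = 1.35e-06), Lcn2 (6.28, adjusted p = 8.63e-05) and Sox9 (5.29, adjusted p = 4.41e-06) in front, and 2 were called lower in PEC than in HN, Sox9 (-1.28, adjusted p = 0.00595) and Vcam1 (-0.84, adjusted p = 0.00190). Vcam1 was not called with the GC content and length trends removed (-0.24, adjusted p = 0.238). The 12 kidney tissue markers summed to 33061, 31920 and 51229 in Control mice, 4337, 5949 and 5030 in HN mice and 13882, 19566 and 12939 in PEC mice, most of which is Kap, with means of 35796 for Control, 3340 for HN and 13392 for PEC. Of these, 7 were called lower in HN and 5 higher in PEC than in HN, with Kap (-3.40, adjusted p = 2.25e-05 and 2.02, adjusted p = 0.000569) and Slc34a1, the phosphate transporter of the proximal tubule (-2.28, adjusted p = 7.38e-06 and 1.23, adjusted p = 0.000360), at the head of both, followed by Lrp2 in HN (-1.89, adjusted p = 4.94e-05) and Cubn in PEC (0.98, adjusted p = 0.00271). Umod, Nphs1 and Pax8 were not called in either comparison and are named after their values were seen. Endothelial markers summed to 141, 152 and 145 in Control mice, 123, 122 and 119 in HN mice and 98.0, 110.2 and 132 in PEC mice, with 2 of 8 called lower in HN and 1 higher in PEC than in HN. Kdr (adjusted p = 0.00773) and Flt1 (-0.82, adjusted p = 0.000645), the genes lower in HN, lost their calls with library totals (adjusted p = 0.143 and 0.0848) and with limma. Emcn, the gene higher in PEC (0.59, adjusted p = 0.0225), lost its call in 12 settings, among them without Control replicate 2, 4 or 5, HN replicate 8 or 12, or PEC replicate 3 (log2 fold change 0.39 to 0.58).

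Adipocyte markers were high in single libraries of each group. The protocol text in the labels speaks of RNA of an adipose type, while the samples are labelled as kidney. They summed to 20.2, 0.385 and 0.129 in Control replicates 2, 4 and 5, 1.27, 0.382 and 41.5 in HN replicates 4, 8 and 12, and 0.268, 0.636 and 428 in PEC replicates 1, 2 and 3, with Cfd the most abundant, and 0 of the 6 tested were called in any comparison with edgeR. PEC replicate 3, the highest of these libraries, also had the highest level of the PEC mice for each of the 10 genes but Jun and Junb. Without Control replicate 2, HN replicate 12 and PEC replicate 3 together, 9 of the 10 genes were called higher in HN than in Control, against 14.9% of all genes in that fit, and 6 were called lower in PEC than in HN, against 13.0%. This added Klf4 (-0.70, adjusted p = 0.0111), Ier3 (-0.87, adjusted p = 0.0222) and Atf3 (-1.14, adjusted p = 0.0493) to Junb, Klf6 and Fosl2, with 2 mice left in each group.

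The genes most like the 10 genes were sought by the Pearson correlation of each tested gene with the mean standardized log2 CPM (counts scaled to library size) of the 10 genes over the 9 libraries, as a description. The 5 highest were Chodl (r = 0.988), Clec5a (r = 0.987), Ccn1 (r = 0.986), Lhfpl2 (r = 0.985) and Stx11 (r = 0.985). Points of the same group share their condition, so that these values largely restate the difference between groups. Ccn1, itself an immediate early gene that encodes a matricellular protein, averaged 12.4 ± 1.94 in Control, 52.0 ± 10.3 in HN and 33.2 ± 7.61 in PEC (SD, n = 3). Clec5a, a receptor of myeloid cells, averaged 0.193 ± 0.0442, 1.54 ± 0.145 and 0.655 ± 0.179 in the same groups. Chodl was listed at 0 in all Control mice and averaged 0.158 in HN.

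Of 7 reference genes, 1 was called higher and 2 lower in HN, against 17.5% and 14.6% of all genes. In PEC against HN, 2 were called higher, against 13.2%. Hprt, Rplp0, Tbp and B2m were called in neither, although B2m averaged 333 for Control, 1032 for HN and 1047 for PEC, with an adjusted p just over the threshold in HN against Control (1.66, adjusted p = 0.0512), and ranged from 448 to 2159 among the PEC mice. Actb rose in HN (0.89, adjusted p = 0.000460). Gapdh fell in HN (-0.76, adjusted p = 0.00519), though not with library totals (adjusted p = 0.328), with limma (adjusted p = 0.335 and 0.325) or, by its fold change, without Control replicate 5 (-0.53), and had a log2 fold change of 3.99 between PEC and HN (adjusted p = 6.7e-06). Ppia was called in both comparisons (-0.72, adjusted p = 0.0350 and 0.69, adjusted p = 0.0452), and lost both with library totals only (adjusted p = 0.648 and 0.169), with limma, without a filter and with only the groups compared. It also lost the call in HN without Control replicate 2, 4 or 5 or HN replicate 4 or 8 (log2 fold change -0.77 to -0.46), and that in PEC without any single mouse other than HN replicate 12 (0.42 to 0.74). Tbp, a component of the general transcription machinery, had log2 fold changes of -0.0042 in HN against Control (adjusted p = 0.981) and 0.16, adjusted p = 0.254 in PEC against HN.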

How the data were processed

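Poly(A) RNA of 9 mouse kidneys, 3 per group, was measured with 1 library per mouse. The authors deposited a table of counts per gene (count) and, in the same table, the deposited FPKM of each library. Their notes name Bowtie 0.12.2 and the builds mm8 and mm9, while the coordinates in the table were identical to GENCODE M21 for 51954 of 55144 shared genes. Counts were tested with edgeR 4.0.16 in R 4.3.3 (TMM factors, default filter with a minimum count of 10, robust quasi-likelihood fit of all 9 libraries), with a call at 1.5-fold and a Benjamini-Hochberg adjusted p of 0.05. Levels are the deposited FPKM divided by the TMM factor. Depth was 57714111 to 81069646 counts per library (median 74397038). The members and lists were chosen with earlier results of these data known.

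The 16 gene lists cover other AP-1 and small MAF factors, ATF, CREB and C/EBP stress factors, other EGR, NR4A and SRF factors, other KLF factors, the MYC and MAX network, other immediate early genes, the MAP kinase cascade, heat shock genes, reported targets, markers of kidney tissue, injured tubule, leukocytes, fibroblasts and pericytes, endothelium and adipocytes, and reference genes. Genes of a list are named by rule, as the 3 called genes with the largest absolute log2 fold change in HN vs Control and in PEC vs HN; a gene that this rule names among the reported targets is not reported here. The rule also covers every gene of the marker and reference lists, of which the text names only some and otherwise gives sums and counts. Of gene names listed more than once, the entry with the most counts was used. The alternatives were other factors (median of ratios, library totals), DESeq2 1.42.0, no filter, limma 3.58.1 on log2(FPKM + 1) and log2(FPKM + 0.1) where mean FPKM reached 0.5, unadjusted p, a fold change of 2, only the groups compared, removal of GC content and length trends, each library left out, and, chosen after seeing the data, 3 libraries with adipocyte RNA left out. Tables were handled with Python 3.11.15, pandas 2.3.3 and scipy 1.17.1.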

Additional observations from a re-analysis of the deposited data

How the results depend on the processing

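The calls of Fosl2, Junb and Klf6 in HN vs Control and in PEC vs HN held under all 20 alternatives. The alternative with unadjusted p could not lose a call, and fits without a mouse of the third group kept all mice compared. Of the fold changes of the 10 genes under the alternatives, 544 kept their direction and side of the threshold, 47 passed it in addition, 4 lost it and 5 turned sign. No paired analysis was possible because the groups compared share fewer than 2 replicate numbers. The lowest count of the 10 genes was 30 reads, of Fos in Control replicate 4.

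Scaling moved the median log2 fold change of all genes in HN vs Control, PEC vs HN and PEC vs Control to 0.56, -0.21 and 0.40 with library totals, 0.35, -0.19 and 0.19 with limma on log2(FPKM + 1), and 0.47, -0.25 and 0.26 with log2(FPKM + 0.1). The share of higher among the calls was 54.5%, 46.7% and 52.0% with edgeR and TMM, 85.7%, 29.6% and 76.6% with library totals, 81.9%, 28.6% and 70.7% with limma on log2(FPKM + 1), and 83.2%, 28.4% and 70.9% with log2(FPKM + 0.1). The cause was not tested.

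In HN vs Control, genes called higher were 7645 with library totals and 5906 with limma on log2(FPKM + 0.1), and genes called lower were 1275 with library totals, 1024 with limma on log2(FPKM + 1), 1191 with log2(FPKM + 0.1) and 1878 at a fold change of 2. In PEC vs HN, genes called higher were 1356 with limma on log2(FPKM + 1), 1683 with log2(FPKM + 0.1) and 1737 at a fold change of 2, where 1793 were called lower. In PEC vs Control, 6353 were higher with library totals, and genes called lower were 1939 with library totals, 1485 with limma on log2(FPKM + 1), 1919 with log2(FPKM + 0.1) and 2060 at a fold change of 2. The stricter fold change gives fewer calls by construction, and for the others the cause was not tested.

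Of the 10 genes, those called lower in PEC vs HN were 5 with library totals, 6 with limma on log2(FPKM + 1), 6 with log2(FPKM + 0.1), 5 with GC content and length trends removed, 6 with the 3 libraries with adipocyte RNA left out, and 3 to 5 with 1 library left out (5 without HN replicate 12), and the cause was not tested. The share of all genes called lower was 15.1% with edgeR and TMM, 21.4% with library totals, 21.9% and 27.4% with limma, 11.3% with trends removed and 13.0% with the adipocyte libraries left out. Signs turned for Fos in PEC vs HN with 1 library left out (-0.52 to 0.079, the last without PEC replicate 1), for Myc in PEC vs HN with the adipocyte libraries left out (-0.070), and for Ier3 in PEC vs Control with GC content and length trends removed (-0.22) and with 1 library left out (-0.14 to 0.45, with -0.03 without Control replicate 5 and -0.14 without PEC replicate 3). The cause was not tested.

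Of the counts called in the gene lists under the alternatives, 274 moved by over 1.5 times, or to or from 0, and 1646 did not. Over all alternatives, the genes called higher in HN vs Control were 4 to 8 of the other AP-1 and small MAF factors, 1 to 6 of the ATF, CREB and C/EBP factors, 3 to 10 of the other EGR, NR4A and SRF factors, 1 to 9 of the other KLF factors, 2 to 8 of the MYC and MAX network, 14 to 25 of the other immediate early genes, 2 to 11 of the MAP kinase cascade, 1 to 2 of the heat shock genes and 12 to 14 of the reported targets. Those called lower in PEC vs HN were, in the same order, 1 to 5, 2 to 8, 0 to 5, 3 to 8, 2 to 5, 3 to 16, 1 to 4, 2 to 6 and 5 to 10. The cause was not tested.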
